A study of Mus musculus with 12 samples.

Results

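The 10 genes of the microRNA machinery described here across 12 libraries of mouse neuroblastoma cells are Drosha, Dgcr8, Xpo5, Dicer1, Tarbp2, Ago1, Ago2, Ago3, Ago4 and Tnrc6a. They were taken from a named list, not from their values, and each name was matched to its Ensembl identifier in the count files. All 10 were found among 55401 identifiers, and all 10 passed the filter on low counts that left 17569 genes for testing. The cells were Neuro-2a, an adherent line kept in medium with 5% serum. They received 1 µg of a GFP plasmid together with plasmids coding for artificial microRNAs built on a miR30 hairpin, 3 µg in all per the labels. The miScramble group received 1 scramble plasmid, the miRbmx group a pool of 3 plasmids against Rbmx, and the miRbmxl1 group a mix of 2 that target Rbmxl1. For this last mix the total of 3 µg does not match the 1 µg of each plasmid that the labels also give, so the dose of it is uncertain. After 48 hours the cells that showed GFP were collected by sorting, and stranded libraries were made from total RNA without ribosomal RNA. Each group held 4 libraries, numbered as biological replicates 1 to 4, and the labels do not say what a number stands for. Every group, the control included, carried the GFP plasmid and expressed a microRNA from the miR30 hairpin, so the machinery was supplied with an artificial substrate in all 12 libraries, and no untransfected cells were analysed here.

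A microRNA starts as a hairpin within a longer transcript. The nuclear enzyme DROSHA, held on the RNA by its partner DGCR8, cuts the hairpin free, and Exportin-5 (Xpo5) carries it to the cytoplasm. There DICER1, with its partner TRBP (Tarbp2), cuts off the loop, and 1 strand is loaded into an Argonaute protein (Ago1 to Ago4). Argonaute finds target mRNAs through the seed, bases 2 to 8 of the microRNA, and binds a GW182 protein such as TNRC6A, which recruits the enzymes that shorten the poly(A) tail. AGO2 is the Argonaute best known for cutting a fully matched target itself. DROSHA and DGCR8 are also known to regulate each other: the complex can cut hairpins within the Dgcr8 mRNA, and DGCR8 stabilises the DROSHA protein. Rbmx and its retrocopy Rbmxl1 encode RNA-binding proteins.

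Sequences of a pair of hairpins bear on these libraries, and both are given here from RefSeq on GRCm38.p6. The first is the natural mouse Mir30a, the family whose hairpin gave the plasmids' backbone its name, at chr1:23272269-23272339 on the plus strand. The second is Mir1306, at chr16:18284239-18284317 on the minus strand, a hairpin that lies wholly within coding exon 2 of Dgcr8 in GENCODE M21. Capitals mark the arms that become mature microRNAs in the hairpins, and the seed in the mature sequences. The designed guides of the plasmids are not shown here.
hairpin of Mir30a: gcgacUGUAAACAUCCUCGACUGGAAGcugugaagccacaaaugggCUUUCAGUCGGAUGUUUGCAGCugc
mmu-miR-30a-5p: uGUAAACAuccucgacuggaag
mmu-miR-30a-3p: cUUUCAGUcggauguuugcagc
hairpin of Mir1306: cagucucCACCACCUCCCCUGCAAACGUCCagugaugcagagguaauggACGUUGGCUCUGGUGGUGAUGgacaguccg
mmu-miR-1306-5p: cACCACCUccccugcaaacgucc
mmu-miR-1306-3p: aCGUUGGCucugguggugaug
No seed is shared among these mature sequences. The Mir1306 entry was listed at 0 in every library, and Mir30a held from 0 to 2 reads per library. Each entry covers the hairpin alone and not the longer transcript that holds it, and Mir1306 lies inside a Dgcr8 exon, so a read there touches both entries.

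Depth was similar in all libraries, from 43.1 to 52.2 M reads in genes. The check of the labels showed the targeted gene lower in its own group. Rbmx was at 67.7 ± 7.15 CPM (read counts scaled to the library size) in miScramble (SD, n = 4) and 27.6 ± 4.96 in miRbmx, a log2 change of -1.30 ± 0.08 (SE). Rbmxl1 went from 34.1 ± 2.21 to 14.2 ± 1.99 CPM in miRbmxl1, a log2 change of -1.27 ± 0.09. Rbmx was higher in miRbmxl1, by 0.36 ± 0.07 (adjusted p = 0.0165, but 0.444 without the replicate number as block). That call held in 9 of 16 fits that left out 1 library or 1 replicate number (adjusted p up to 0.0767, without replicate 1). All 10 sympathoadrenal and neuronal markers examined reached 1 CPM, and their summed level was 1480 to 1824 CPM in miScramble, 1595 to 1976 in miRbmx and 1563 to 1783 in miRbmxl1. Among markers of other cell types, only Pecam1, Pdgfra and Cd68 reached 1 CPM in any library. On the first principal component (37.9% of variance), replicates 1 and 2 lay apart from 3 and 4 in every group. The rule that defined the members asked for the replicate number as a block in the model, so each result is given with it. The value without the block stands beside any call lost without it.

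Levels are compared between genes as CPM per kb of merged exons, which sets longer and shorter transcripts on 1 scale. In miScramble, Ago2 stood first at 72.5 ± 8.54 CPM per kb (SD, n = 4), followed by Drosha at 38.5 ± 3.27 and Xpo5 at 27.4 ± 3.48. Tarbp2 at 14.4 ± 2.44 and Tnrc6a at 14.01 ± 0.85 overlapped each other, as did Dicer1 at 10.5 ± 0.43 and Ago1 at 9.76 ± 0.55. Dgcr8 was lower, at 7.50 ± 0.28, then Ago3 at 2.15 ± 0.12, and Ago4 was last at 0.254 ± 0.03. On the length of the longest coding transcript, Tarbp2 (43.2) passed Xpo5 (36.9) and Drosha stood at 50.1, while Dgcr8 (13.4) passed Ago1 (10.96), so the order in the middle of the list depends on the length used. Among the Argonautes, Ago2 made up 85.6% ± 0.81 of the summed CPM per kb in miScramble, 87.0% ± 1.85 in miRbmx and 86.5% ± 2.23 in miRbmxl1. Ago1 made up 11.6% ± 0.66 of that sum in miScramble, Ago3 2.56% ± 0.14 and Ago4 0.300% ± 0.03. On this scale Ago2 was the main Argonaute transcript in all 3 groups.

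**Figure D1:**
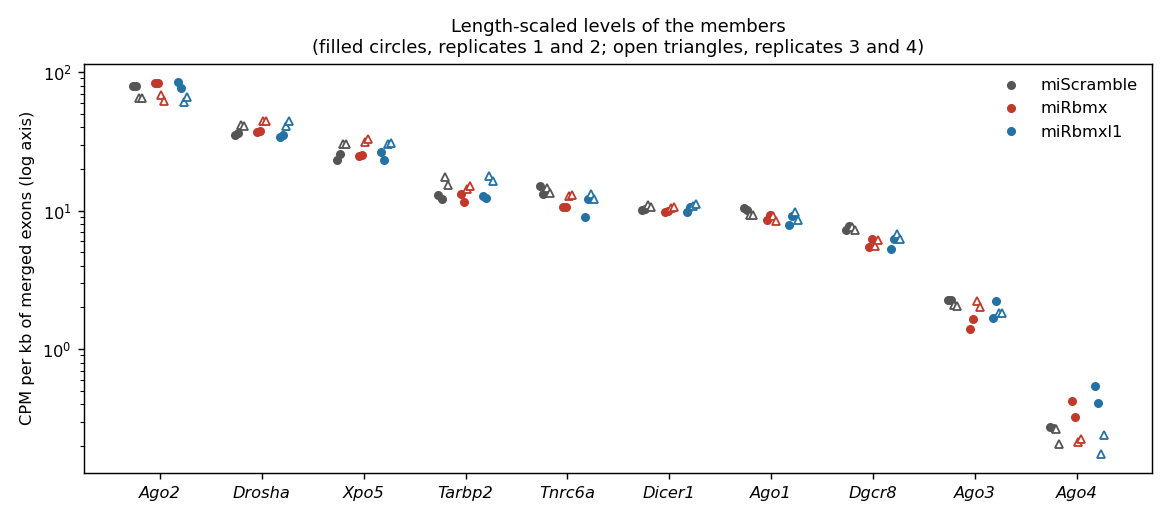
Level of each member in CPM per kb of merged exons on a log axis, for the 12 libraries, with colours for the 3 groups, filled circles for replicates 1 and 2 and open triangles for replicates 3 and 4. Ago2 lies above all other members in every library and Ago4 below all others.

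Dgcr8 was the member that fell in both knockdowns. It encodes the RNA-binding partner of DROSHA and lies on chromosome 16 from 18253948 to 18289246 on the minus strand (GRCm38), with 14 exons in its longest coding transcript. In miScramble its 4 libraries held 55.9, 60.0, 59.0 and 55.9 CPM, in the order of the replicate numbers. The miRbmx libraries held 42.1, 48.1, 42.8 and 46.9 CPM, and the miRbmxl1 libraries 40.3, 48.3, 52.0 and 47.8 CPM. Every knockdown library lay below every scramble library, and the knockdown groups overlapped each other. Of all genes tested, 3.85% were as separate on the lower side in miRbmx and 2.79% in miRbmxl1. The log2 change was -0.36 ± 0.07 (SE, 4 of 4 replicates lower) in miRbmx, with adjusted p = 0.0077 by edgeR's quasi-likelihood test with Benjamini-Hochberg adjustment. It was -0.30 ± 0.07 (4 of 4 replicates lower) in miRbmxl1, with adjusted p = 0.0215. Without the replicate block the same test gave adjusted p = 0.240 and 0.369, so both calls rest on the block. In bulk RNA, fewer cells with the transcript and less of it per cell cannot be told apart. In miRbmx the first pair of replicates alone gave -0.35 and the second pair -0.36, and in miRbmxl1 the pairs gave -0.38 and -0.21. The miRbmx call held in 15 of 16 fits that left out 1 library or 1 replicate number, and was lost without replicate 3 (adjusted p = 0.0501). The miRbmxl1 call held in 8 of those 16 and was lost without miScramble replicate 1, 2 or 3, without miRbmxl1 replicate 1 or 4, and without replicate number 1, 2 or 4 in all groups, with adjusted p up to 0.111.

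Drosha, the nuclease itself, did not pass the test in either knockdown. Its scramble libraries held 207, 217, 247 and 244 CPM, the miRbmx libraries 218, 223, 264 and 263 CPM, and the miRbmxl1 libraries 201, 208, 241 and 264 CPM. The groups overlapped throughout. The log2 change was 0.08 ± 0.05 in miRbmx (adjusted p = 0.380) and -0.01 ± 0.05 in miRbmxl1 (adjusted p = 0.971), where the sign turned under upper-quartile scaling. The ratio of Dgcr8 to Drosha in CPM per kb was 0.196 ± 0.02 in miScramble (0.177 to 0.213, n = 4), 0.145 ± 0.02 in miRbmx (0.125 to 0.167) and 0.160 ± 0.02 in miRbmxl1 (0.139 to 0.179). The miRbmx libraries did not overlap miScramble in this ratio, and the miRbmxl1 libraries did.

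The counts of Dgcr8 carry a limit of position. The gene overlaps Trmt2a, which is on the opposite strand, and 26.3% of the 50-base words of the Dgcr8 transcript also occur in other genes. Trmt2a is the gene that shares the most of these words when both strands are read. Trmt2a itself did not pass the test, with a log2 change of 0.08 ± 0.07 in miRbmx and 0.18 ± 0.07 in miRbmxl1 (adjusted p = 0.550 and 0.166). The strand setting of the counting is not given in the sources used here. Its part in the Dgcr8 result was not tested.

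Of the 10 members, 1 passed the test in miRbmx (Dgcr8, lower), beside 8.35% of all 17569 genes, and 1 passed in miRbmxl1 (again Dgcr8), beside 4.46% of all genes. For 10 genes those are counts close to the background. Counting only genes that were lower, the background was 4.19% in miRbmx and 2.2% in miRbmxl1, and 1.39% of all genes were called lower in both. The scramble libraries are shared by both comparisons, so a low or high value in them enters both. The median log2 change of the 10 members was -0.06 in miRbmx and -0.01 in miRbmxl1, beside 0.00 and 0.01 over all genes tested.

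**Figure D2:**
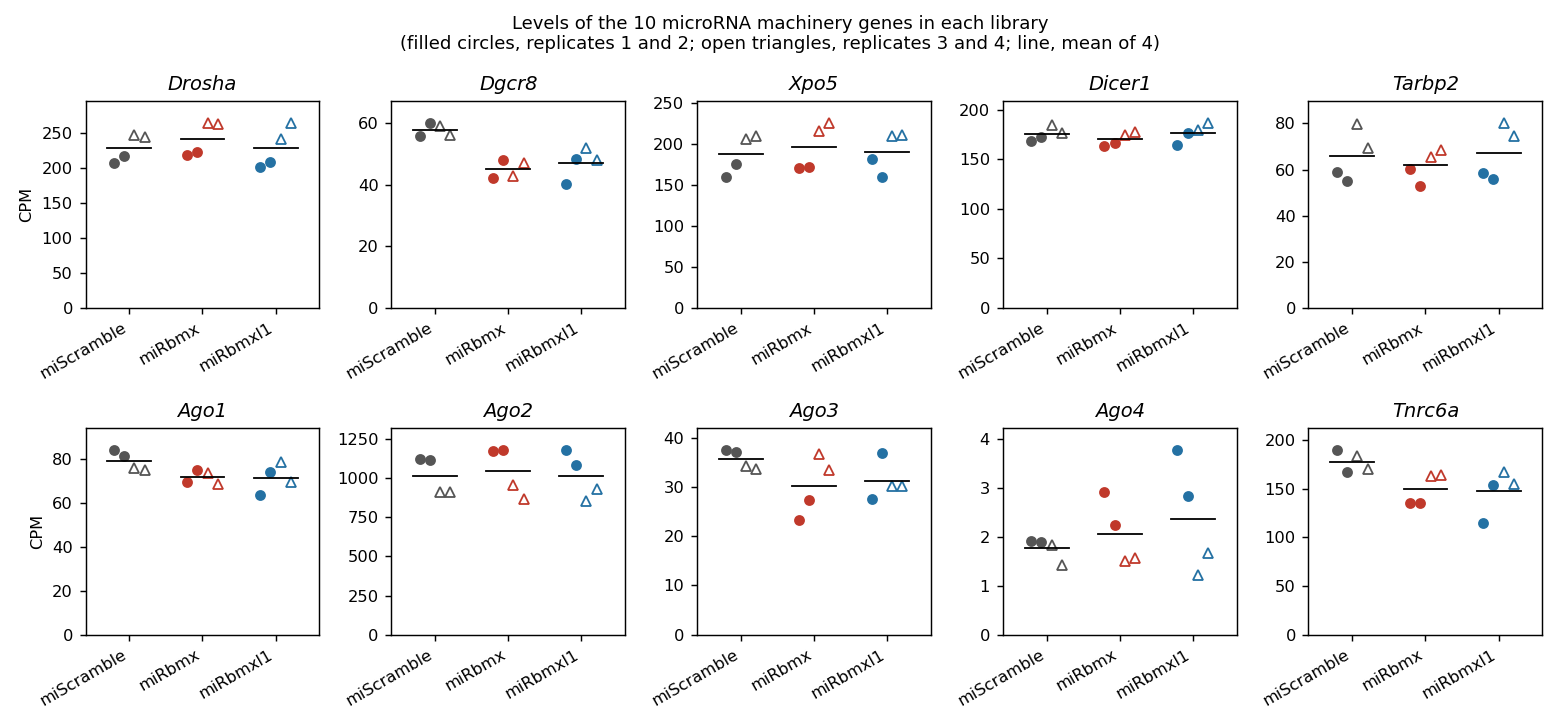
CPM of each of the 10 members in every library, from 0, by group, with filled circles for replicates 1 and 2, open triangles for replicates 3 and 4 and a line at the mean of 4. Dgcr8 is the panel in which all knockdown libraries of both groups lie below the scramble libraries, while Drosha, Xpo5, Tarbp2 and Ago2 split by replicate number in each group.

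Export and dicing genes stayed within the spread between libraries. Xpo5, the export carrier of precursor hairpins, held 160, 176, 206 and 209 CPM in miScramble, 170, 172, 216 and 225 CPM in miRbmx, and 181, 160, 209 and 211 CPM in miRbmxl1. All 3 groups overlapped, and the log2 change was 0.06 ± 0.06 in miRbmx and 0.02 ± 0.06 in miRbmxl1 (adjusted p = 0.566 and 0.895). Dicer1, the cytoplasmic nuclease, ranged from 168 to 185 CPM in miScramble, from 164 to 178 in miRbmx and from 164 to 187 in miRbmxl1. Its log2 change was -0.04 ± 0.05 in miRbmx (95% interval -0.147 to 0.065) and 0.01 ± 0.05 in miRbmxl1 (-0.098 to 0.113), which are the narrowest errors among the members. Tarbp2, the DICER1 partner, held 59.0, 55.0, 79.7 and 69.2 CPM in miScramble, and its log2 change was -0.08 ± 0.06 in miRbmx and 0.03 ± 0.06 in miRbmxl1 (adjusted p = 0.467 and 0.8286). The miRbmx value came from the second pair of replicates (-0.16, beside 0.00 in the first) and was -0.01 without replicate 3. Tarbp2 shares 49.1% of its 50-base words with other genes, and the pseudogene Gm18584 is the gene that shares the most. Reads with several alignments, 20.6% to 26.5% of each file's total, stood in a closing row without a gene. They are therefore not in the count of Tarbp2.

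No Argonaute passed the test in either knockdown. Ago2 held 1121, 1120, 912 and 914 CPM in miScramble, 1173, 1179, 957 and 870 CPM in miRbmx, and 1183, 1083, 855 and 930 CPM in miRbmxl1. In each group the first pair of replicates was higher than the second pair, and the groups overlapped. The log2 change of Ago2 was 0.04 ± 0.06 in miRbmx and -0.01 ± 0.06 in miRbmxl1 (adjusted p = 0.754 and 0.956), where the second turned sign under upper-quartile scaling. Ago2 overlaps Chrac1 on the opposite strand, which was at -0.26 ± 0.09 and -0.18 ± 0.09 and did not pass (adjusted p = 0.0806 and 0.288).

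Ago1, Ago3 and Ago4 lie side by side on the minus strand of chromosome 4 (GRCm38): Ago3 from 126331704 to 126429556, Ago1 from 126435012 to 126468583 and Ago4 from 126489541 to 126533472. Ago1 held 84.4, 81.5, 76.1 and 75.0 CPM in miScramble, 69.4, 75.4, 73.6 and 68.6 CPM in miRbmx, and 63.8, 74.3, 78.7 and 69.6 CPM in miRbmxl1. The knockdown groups lay lower on average but reached into the scramble range, and the log2 change was -0.14 ± 0.06 in miRbmx and -0.15 ± 0.06 in miRbmxl1 (adjusted p = 0.177 and 0.214). Without miScramble replicate 1 these were -0.08 and -0.08, and in miRbmxl1 the replicate pairs gave -0.26 and -0.04. Ago3 held 37.6, 37.2, 34.3 and 33.7 CPM in miScramble, 23.3, 27.4, 36.9 and 33.6 CPM in miRbmx, and 27.6, 36.9, 30.2 and 30.2 CPM in miRbmxl1. The lowest Ago3 values were in miRbmx replicates 1 and 2, where its log2 change was -0.56, beside 0.04 in replicates 3 and 4. Over all 4 replicates the change of Ago3 was -0.25 ± 0.11 in miRbmx and -0.20 ± 0.11 in miRbmxl1 (adjusted p = 0.176 and 0.342). With 1 library or replicate number left out it ranged from -0.37 to -0.11 in miRbmx, nearest to 0 without replicate 1, and from -0.29 to -0.08 in miRbmxl1, nearest to 0 without miScramble replicate 1.

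Ago4 was the member with the fewest reads. It held between 54 and 172 reads per library, or 1.91, 1.88, 1.84 and 1.42 CPM in miScramble, 2.91, 2.25, 1.49 and 1.56 CPM in miRbmx, and 3.77, 2.84, 1.21 and 1.66 CPM in miRbmxl1. The highest values were in replicates 1 and 2 of the knockdown groups. The log2 change was 0.15 ± 0.22 in miRbmx and 0.32 ± 0.22 in miRbmxl1 (adjusted p = 0.719 and 0.463), and its sign turned within replicates 3 and 4, to -0.11 and -0.20. These are the widest errors among the members, with a 95% interval in miRbmxl1 from -0.151 to 0.785 and leave-one-out values from 0.08 (without replicate 1) to 0.61 (without replicate 3).

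Tnrc6a, the GW182 scaffold among the members, was lower in all 4 replicates of both knockdowns but did not pass the test. Its scramble libraries held 190, 168, 184 and 170 CPM, the miRbmx libraries 136, 135, 163 and 165 CPM, and the miRbmxl1 libraries 115, 154, 168 and 155 CPM. The miRbmx libraries did not overlap the scramble libraries, as for Dgcr8, and 1 miRbmxl1 library reached just above the lowest scramble library. The log2 change was -0.26 ± 0.09 in miRbmx (adjusted p = 0.0716) and -0.28 ± 0.09 in miRbmxl1 (adjusted p = 0.0768). With DESeq2's Wald test the adjusted p was 0.0276 and 0.0212, and with limma voom 0.0716 and 0.0735. The call also appeared in miRbmx without miRbmxl1 replicate 1 or 2 (adjusted p = 0.0246 and 0.0491) and in miRbmxl1 without its replicate 2 (0.0347). Without the replicate block the adjusted p was 0.440 and 0.543. The first pair of replicates alone gave -0.40 in miRbmx and -0.41 in miRbmxl1, and the second pair -0.12 and -0.14. Without miScramble replicate 1 the change was -0.14 in miRbmx and -0.16 in miRbmxl1, and it was -0.13 in miRbmxl1 without replicate 1 in all groups.

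**Figure D3:**
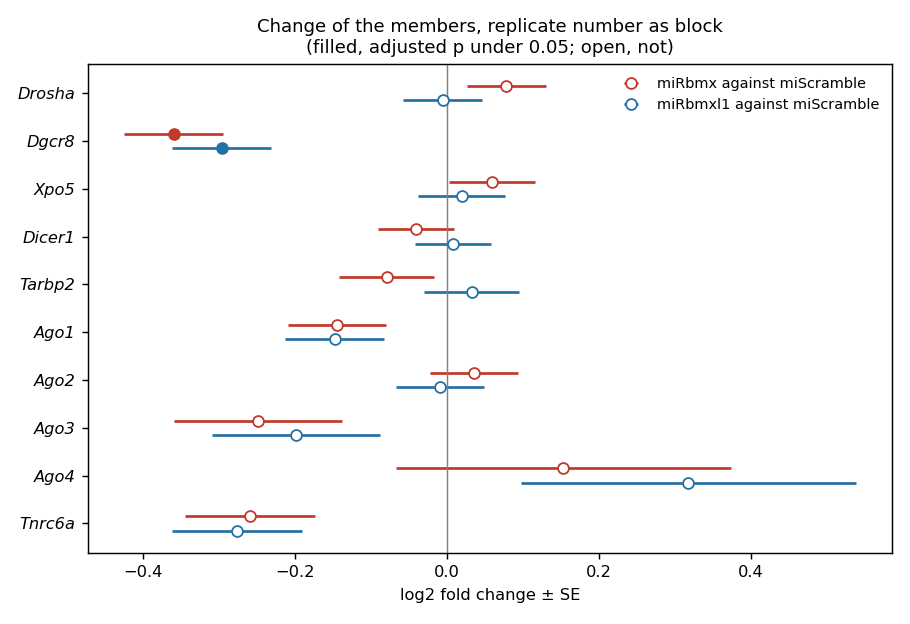
Log2 fold change with its SE of each member in miRbmx (red) and miRbmxl1 (blue) against miScramble, with the replicate number as block, where filled points have an adjusted p under 0.05. Only Dgcr8 has filled points, at -0.36 and -0.30, and Ago4 has the widest error bars.

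Between the 2 knockdowns, no member differed. By edgeR's quasi-likelihood test 0 of 10 members were called in miRbmx against miRbmxl1, beside 0.0114% of all genes, and 0 of 10 had an unadjusted p under 0.05, beside 5.7% of all genes. DESeq2 and limma voom called 0 as well. The interval of the difference shows how large it could still be: for Dgcr8 it was -0.06 on the log2 scale (95% interval -0.202 to 0.075), for Tnrc6a 0.02 (-0.164 to 0.198), for Drosha 0.08 (-0.027 to 0.193) and for Ago2 0.04 (-0.079 to 0.168). The difference was widest for Ago4, at -0.16 (-0.626 to 0.297).

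More members differed by replicate number than in either knockdown, and the same held over all genes (35.3%, beside 8.35% in miRbmx and 4.46% in miRbmxl1). Drosha, Xpo5, Tarbp2, Ago2 and Ago4, 5 of the 10, differed among replicate numbers in edgeR's quasi-likelihood test (adjusted p = 0.0013, 0.0004, 0.0003, 0.0004 and 0.0223), beside 35.3% of all genes. With 10 genes, that count is not far from the share over all genes. For those 5 genes the 6 libraries of replicates 1 and 2 did not overlap the 6 of replicates 3 and 4. The share of all genes as separate between these sets was not computed. Drosha had a mean of 212 CPM in the first set (201 to 223) and 254 CPM in the second (241 to 264), Xpo5 170 and 213 CPM, and Tarbp2 56.9 and 73.0 CPM. Ago2 went the other way, from 1143 CPM in the first set (1083 to 1183) to 906 CPM in the second (855 to 957), and Ago4 from 2.59 to 1.53 CPM. On the log2 scale the second set stood at 0.26, 0.32 and 0.36 over the first for Drosha, Xpo5 and Tarbp2, and at -0.34 and -0.76 for Ago2 and Ago4. Dgcr8 (adjusted p = 0.214), Dicer1 (0.247), Ago1 (0.479), Ago3 (0.468) and Tnrc6a (0.202) did not pass, and their sets overlapped. What the replicate number stands for was not tested, and it cannot be told apart from any step that the numbered libraries share.

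**Figure D4:**
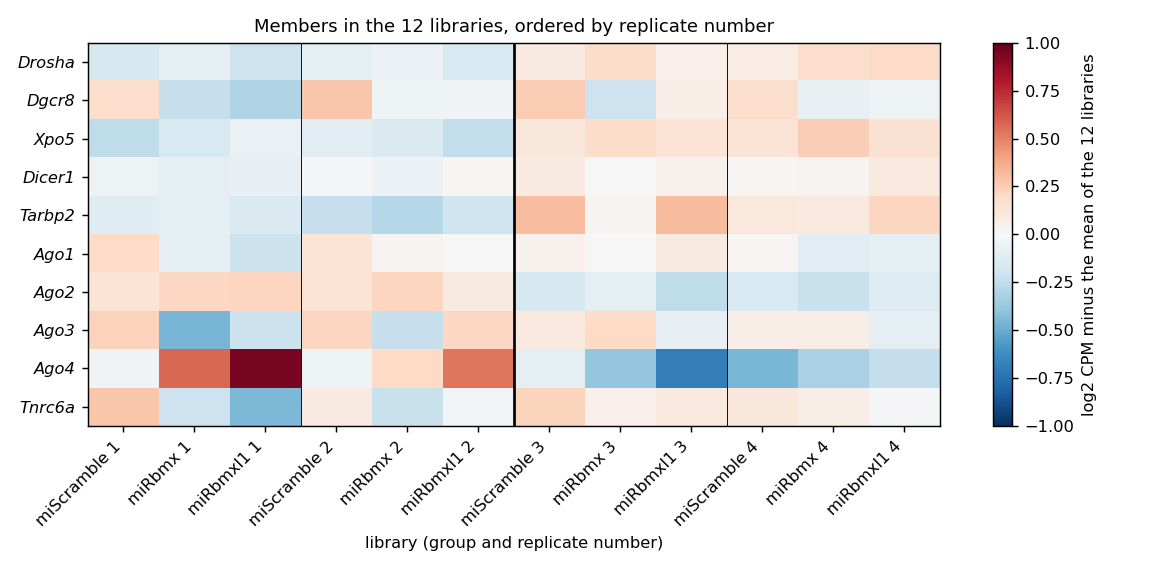
Log2 CPM of each member minus its mean over the 12 libraries, with libraries in columns ordered by replicate number, red above and blue below the mean. Drosha, Xpo5 and Tarbp2 are above and Ago2 and Ago4 below their mean in the right 6 columns, replicates 3 and 4, with Dgcr8 instead highest in the scramble columns.

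The genes whose log2 CPM ran most alike over the 12 libraries were found for 3 members. For Drosha they were Uso1 (Pearson r = 0.985), Nptxr (0.983) and Sec31a (0.978), and for Ago2 they were Rtn3 (0.990), Cacng4 (0.989) and Antxr2 (0.987). For Dicer1 they were Zfp523 (0.953), Gm37019 (0.935) and Gm14321 (0.933). Among the members, r was 0.91 between Drosha and Xpo5 and -0.84 between Drosha and Ago2, while Dgcr8 stood nearest to Ago1 (0.79) and Tnrc6a (0.78). These values over 12 libraries are descriptions only, and the libraries share the replicate numbers and the groups.

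Beyond the members, 74 other genes of the pathway were listed and 73 were matched and tested. In miRbmx 13 of them passed (17.8%, beside 8.35% of all genes), 4 higher and 9 lower, with a list median of -0.02. In miRbmxl1 5 passed (6.85%, beside 4.46%), 2 higher and 3 lower, with a median of -0.06. With the block, 33 and 23 of the 73 had an unadjusted p under 0.05, beside 24.9% and 19.8% of all genes. Without the replicate block edgeR's quasi-likelihood test called 0 of the 73 and 0 of the members in either comparison, beside 0.00569% of all genes in each. Leaving out replicate 3 from every group left 1 call on the list in miRbmx, and leaving out 1 library or number at a time left from 1 to 9 calls in miRbmxl1. The lists were written with earlier results of these data known, so their counts are a description.

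Of 16 tested cofactors of the nuclear Microprocessor, 5 fell and 0 rose in miRbmx, beside 4.19% of all genes called lower, and the median was -0.08. Without the replicate block none of the 5 was called, with adjusted p from 0.274 (Ddx5 and Ddx17) to 0.543 (Safb2). Ddx5 and Ddx17, the RNA helicases p68 and p72 that bind DROSHA, changed by -0.35 ± 0.07 and -0.38 ± 0.09 (adjusted p = 0.0092 and 0.0187), and these calls held in 15 and 11 of 16 leave-one-out fits. Ddx5 lost its call without replicate 3 (adjusted p = 0.0621). Ddx17 was at -0.15 in the first pair of replicates and -0.61 in the second. Ddx5 ranged from 868 to 1093 CPM in miScramble and from 677 to 862 in miRbmx, without overlap. Safb2, a scaffold attachment factor, changed by -0.47 ± 0.12 but was lower in 3 of 4 replicates, and its call held in 8 of 16 such fits, with -0.67 in the first pair and -0.27 in the second. Srsf3, a splicing factor that also binds primary hairpins, changed by -0.22 ± 0.06 (6 of 16 such fits). Adar, an RNA-editing enzyme outside the rule for named genes and named after its value was seen, changed by -0.21 ± 0.06 (3 of 16). In miRbmxl1 1 of 16 cofactors passed, Ddx5, by -0.32 ± 0.07 (adjusted p = 0.0172, and 0.390 without the block), a share near the 4.46% of all genes. Ddx17 and Adar each overlap a gene on the opposite strand (Kdelr3 and Chrnb2), whose reads can mix with theirs if the counting ignored strand. The direct test of miRbmx against miRbmxl1 called none of the 16, and 0 had an unadjusted p under 0.05.

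Of 7 export and dicing cofactors, none passed in either knockdown by edgeR's quasi-likelihood test, with 1 and 0 at an unadjusted p under 0.05, beside 24.9% and 19.8% of all genes. Of 9 genes for tailing and decay of precursors, 1 passed in each: Lin28b, which blocks the maturation of let-7 precursors, changed by -0.45 ± 0.07 in miRbmx and -0.28 ± 0.07 in miRbmxl1 (adjusted p = 0.0052 and 0.0434, and 0.285 and 0.623 without the block). For 9 genes, 1 call is close to the 8.35% and 4.46% of all genes. Its libraries ranged from 54.4 to 68.9 CPM in miScramble, from 36.9 to 50.2 in miRbmx and from 37.0 to 56.6 in miRbmxl1. The miRbmx call held in 16 of 16 leave-one-out fits and the miRbmxl1 call in 3 of 16.

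Of 12 genes for loading and turnover of Argonaute, 2 rose in miRbmx, beside 4.16% of all genes called higher. Both encode partners of the HSP90 chaperone. Ptges3, the co-chaperone p23, changed by 0.28 ± 0.07 and Fkbp4 by 0.24 ± 0.06 (adjusted p = 0.0271 and 0.0216, and 0.274 and 0.266 without the block), called in 8 and 6 of 16 leave-one-out fits. Fkbp4 ranged from 292 to 318 CPM in miScramble and from 354 to 365 in miRbmx. In miRbmxl1 the same genes had 0.15 ± 0.07 and 0.19 ± 0.06 and did not pass. Fkbp4 was nevertheless higher in 4 of 4 miRbmxl1 replicates without overlap, and it was called there by DESeq2 (adjusted p = 0.0310), with upper-quartile scaling (0.0456), in replicates 3 and 4 alone (0.0242), without miRbmxl1 replicate 2 (0.0209) and without replicate 2 in all groups (0.0340). It was not called there by limma voom (0.0580), or by edgeR without the block (0.444) or in replicates 1 and 2 alone (0.565). Of 16 leave-one-out fits, 2 called it. The share of all genes as separate on the higher side was not computed.

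Among 29 GW182, deadenylation, decapping and repression genes, 2 rose and 3 fell in miRbmx, beside 8.35% of all genes called, and 2 rose and 1 fell in miRbmxl1, beside 4.46%. The Tnrc6a paralog Tnrc6c changed by -0.31 ± 0.06 in miRbmx and -0.35 ± 0.06 in miRbmxl1 (adjusted p = 0.0082 and 0.0064, and 0.682 and 0.758 without the block), lower in 4 of 4 replicates in both though the groups overlapped in level. Both Tnrc6c calls were lost without replicate 3 (adjusted p = 0.0690 and 0.0647) or replicate 4 (0.0562 and 0.0535). The other paralog, Tnrc6b, was at -0.13 ± 0.06 in both and did not pass. Pan2, a poly(A) nuclease, changed by -0.54 ± 0.12 in miRbmx, and Cnot7, a deadenylase of the CCR4-NOT complex that overlaps Vps37a and Zdhhc2 on the opposite strand, by -0.25 ± 0.05, called in 12 and 11 of 16 leave-one-out fits but not without the block (adjusted p = 0.379 and 0.306). Btg2, which recruits that complex, rose by 0.51 ± 0.14 in miRbmx and 0.59 ± 0.14 in miRbmxl1 (adjusted p = 0.0312 and 0.0269, and 0.524 and 0.542 without the block), called in 8 and 10 of 16. In miRbmx Btg2 stood at 0.30 in the first pair of replicates and 0.72 in the second. Mov10, an RNA helicase bound to Argonaute, rose by 0.21 ± 0.06 and 0.28 ± 0.06 (adjusted p = 0.0491 and 0.0231, and 0.463 and 0.486 without the block), called in 2 and 6 of 16, and in miRbmx the pairs gave 0.34 and 0.07. The miRbmx call of Mov10 was also lost in edgeR with DESeq2 size factors (adjusted p = 0.0639) and with only the compared groups (0.0539). Tnrc6a made up 27.3% of the summed CPM per kb of the GW182 genes in miScramble, Tnrc6b 29.6% and Tnrc6c 43.1%.

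**Figure D5:**
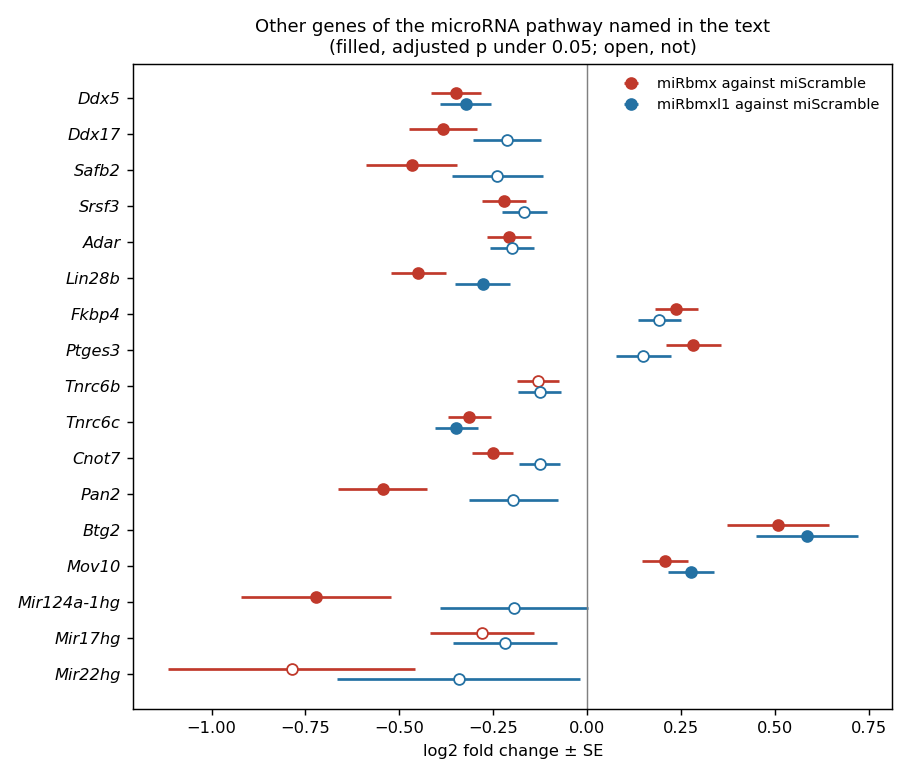
Log2 fold change with its SE of the named pathway and host genes in miRbmx (red) and miRbmxl1 (blue) against miScramble, with filled points for an adjusted p under 0.05. Ddx5, Lin28b and Tnrc6c are below 0 and Btg2 and Mov10 above 0 with filled points in both comparisons.

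Some host transcripts of microRNAs, a substrate of the machinery, carry the host role in their gene name. Of 10 genes so named, 5 could be tested and 3 were at 0 in every library. Of the 5 tested, 1 was called in miRbmx, beside 8.35% of all genes, and 0 in miRbmxl1, beside 4.46%. For 5 genes, 1 call is close to the background. Mir124a-1hg, host of a microRNA of neurons (miR-124), held 2.21, 2.30, 5.79 and 4.87 CPM in miScramble and 1.14, 1.04, 3.42 and 4.14 CPM in miRbmx. It was lower in 4 of 4 replicates while the groups overlapped, with a log2 change of -0.72 ± 0.20 and adjusted p = 0.0375 by edgeR's quasi-likelihood test with the block, and 0.688 without it. That call held in 5 of 16 leave-one-out fits, and the replicate pairs gave -1.04 and -0.50. In miRbmxl1 its change was -0.19 ± 0.20 (adjusted p = 0.637). Mir17hg, host of the cluster that holds miR-17, ranged from 2.87 to 10.8 CPM over all libraries and did not pass in either knockdown, at -0.28 ± 0.14 and -0.22 ± 0.14. Mir22hg, at 0.307 to 2.67 CPM, was at -0.79 ± 0.33 in miRbmx and -0.34 ± 0.32 in miRbmxl1 and did not pass (adjusted p = 0.150 and 0.607). Its miRbmx libraries did not overlap the scramble libraries, beside 3.85% of all genes as separate on the lower side. It was called there with no filter on low counts (adjusted p = 0.0135), with only the compared groups (0.0344) and without miRbmxl1 replicate 1 (0.0268). It was not called by DESeq2 (0.0826), by limma voom (0.134) or by edgeR without the block (0.543). Of 16 leave-one-out fits, 1 called it, and it held from 14 to 144 reads per library. Mature microRNAs were not measured, so nothing here gives the output of the pathway.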

How the data were processed

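RNA was measured in 12 libraries, 4 per group. The authors deposited raw counts, 1 whole number per Ensembl gene and library. Per the submitters' processing notes, STAR 2.5.3a, HTSeq 0.6.1p1, cutadapt, R 3.3.2 and DESeq2 1.16.1 were used with mm10, with no role or order given. The strand setting and annotation are not given in the sources used here. Closing rows that name no gene (52.3% to 57.4% of each file's total) were left out. No libraries were identical. Nothing in the labels says that replicates came from separate cultures beyond calling them biological, so p-values concern the spread between these libraries. With the block, that is the spread left once differences between replicate numbers are removed.

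Gene names, lengths and positions came from GENCODE M21 (GRCm38), which matched 55141 of 55401 identifiers, and may not be the annotation used for counting. Sequences came from RefSeq GRCm38.p6, which had entries for Mir30a and Mir1306, while miR-124 is named only. In R 4.3.3, filterByExpr (minimum count 10, total 15) left 17569 genes. edgeR 4.0.16 scaled libraries by TMM and fitted a quasi-likelihood model to all 12 libraries with group and replicate number. P-values were adjusted over all tested genes by Benjamini-Hochberg, and under 0.05 counted as called. CPM values used TMM-scaled library sizes. Alternatives were DESeq2 1.42.0, limma 3.58.1 (voom), other scalings, no filter, no block, and libraries left out.

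Log2 CPM (prior count 2), centred on group means, correlated at 0.195 to 0.524 for the 12 pairs with the same number. Pairs with another number in the same set had 0.100 to 0.431, which overlaps that range. The 24 pairs from replicates 1 and 2 against 3 and 4 had -0.573 to -0.129. Centring each group on its own mean lowers values between the sets when those within a set are above 0. These values show a split between the sets and do not show that the number pairs the libraries.

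On simulated counts for miRbmx against miScramble (17569 genes, 200 changed), 89.5% of 1.5-fold changes were recovered with 8.21% false among calls, and 98.5% of 2-fold changes with 4.83%. The changed genes were drawn only from those with higher counts. Smaller changes, such as that of Dgcr8, were not simulated, so their recovery is not known. The counts were drawn from a fit with the replicate number, so the dependence of calls on the block was not tested there.

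The members, the pathway, host and marker lists and the block were chosen with earlier results of these data known. Named were all members, Rbmx and Rbmxl1, the paralogs Tnrc6b and Tnrc6c, up to 8 called pathway genes per comparison and direction by adjusted p, called or highest host genes, and the 3 genes most alike to each of Drosha, Dicer1 and Ago2. Protein sequences were not used here. Of the marker list, 1 gene is not reported here.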

Additional observations from a re-analysis of the deposited data

Results flagged for a closer look

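The library of miScramble replicate 4 stood apart for Ago4, at 1.42 CPM beside 1.84 to 1.91 CPM in the other miScramble libraries. It was the 1 library that lay far from the others of its group, by Dixon's criterion, among 30 sets of 4 libraries (10 members in 3 groups), and chance gives about 1 in 20.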

How the results depend on the processing

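The direction of Dgcr8, Tnrc6a and Ago1 in both knockdowns, and of the pathway genes called in miRbmx, was the same under every alternative run, while the calls were not. Counts are given as members, all genes and listed pathway genes called. Without the replicate block they were 0, 1 and 0 in both knockdowns. DESeq2's Wald test called 2 members in each, 1279 genes and 10 pathway genes in miRbmxl1, and 10 genes between the knockdowns. With no filter on low counts the members called were 3 in miRbmx (Dgcr8, Ago3, Tnrc6a) and 2 in miRbmxl1, with 1243 genes and 8 pathway genes there, and between the knockdowns 86 genes and 1 pathway gene. With only the groups compared, 2 members were called in miRbmx and 426 genes in miRbmxl1. Replicates 1 and 2 alone gave 0, 4 and 0 in miRbmx, 0, 30 and 0 in miRbmxl1 and 4 genes between them. Replicates 3 and 4 alone gave 0 members in miRbmxl1 and 18 genes between them.

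Leaving out 1 library or replicate number gave 0 to 2 members, 146 to 1904 genes and 1 to 16 pathway genes in miRbmx, with the lowest gene count without replicate 3. In miRbmxl1 it gave 0 to 2 members, 100 to 1032 genes (lowest without replicate 4) and 1 to 9 pathway genes, and between the knockdowns 2 to 7 genes.

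Several uncalled log2 changes turned sign, and the cause was not tested. In miRbmx, replicates 3 and 4 gave -0.0066 for Ago2, 0.0427 for Ago3 and -0.1083 for Ago4. In miRbmxl1, they gave 0.0330 for Drosha, -0.2004 for Ago4 and 0.0120 for Mir22hg, and replicates 1 and 2 gave 0.0266 for Ago2, 0.0281 for Ddx17 and 0.0041 for Pan2. Upper-quartile scaling gave 0.0044 for Drosha and 0.0009 for Ago2 in miRbmxl1. Between the knockdowns, replicates 1 and 2 gave 0.0255 for Dgcr8, replicates 3 and 4 gave -0.0580 for Ago1, 0.2215 for Ago3 and 0.0922 for Ago4, and upper-quartile scaling gave -0.0019 for Ago1.

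With a library or number left out, Ago4 ranged from -0.0300 to 0.3959 in miRbmx. In miRbmxl1 the ranges were -0.0443 to 0.0243 for Ago2, -0.0177 to 0.0244 for Dicer1, -0.0489 to 0.0151 for Drosha, -0.0416 to 0.0742 for Xpo5 and -0.5515 to 0.0619 for Mir22hg. Between the knockdowns they were -0.0474 to 0.0553 for Ago1, -0.1721 to 0.0814 for Ago3, -0.3527 to 0.0130 for Ago4, -0.1026 to 0.0155 for Dgcr8 and -0.0782 to 0.0926 for Tnrc6a. Ago4 held the fewest reads among the members, 54 to 172 per library.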
